A study of Bos taurus with 6 samples.

Results

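The receptors through which cumulus cells read gonadotropins and steroid hormones were followed in cattle: FSHR and LHCGR for follicle-stimulating and luteinising hormone, ESR1 and ESR2 for oestrogens, PGR, PGRMC1 and PGRMC2 for progesterone, and NR3C1 for glucocorticoids. All probe sets with exactly 1 of these symbols in the platform annotation were taken. That gave 11 probe sets of 7 genes, out of 24016 probe sets and 9155 named genes tested, and PGRMC2 had none and is not analysed here. Cumulus cells are the somatic cells around the oocyte. Crossbred cows (Bos indicus x Bos taurus) gave the cells, and their pooled RNA was hybridised to 6 Affymetrix bovine arrays, 3 for large follicles, at least 8 mm across, and 3 for small follicles of 1 to 3 mm. The submitters call the first competent and the second incompetent, and the comparison asks how cumulus transcripts differ with follicle size. All complexes came from ovaries taken after slaughter and were selected for a compact cumulus. No source used here says how many cows or complexes made up a pool. The p-values set the difference between groups against the spread among these pools, and give no measure of the spread among cows.

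Follicle-stimulating hormone binds a G protein-coupled receptor on granulosa and cumulus cells, and the cyclic AMP made there drives aromatase and inhibin genes. The luteinising hormone receptor uses the same second messenger and appears on bovine granulosa cells late in follicle growth. The steroid receptors ESR1, ESR2, PGR and NR3C1 are ligand-bound transcription factors of the nuclear receptor family, held ready by HSP90 chaperones. PGRMC1 and PGRMC2 belong to a separate family of haem-binding membrane proteins.

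Values are log2 probe set signals made by the authors with RMA, and each difference is large-follicle minus small-follicle, fitted with limma over all probe sets and called at a Benjamini-Hochberg adjusted p under 0.05. A probe set's brightness depends on its probes as well as on the transcript, so signals of different probe sets give no order of transcript levels. Each gene of a list was counted by its brightest probe set. For the pathway lists, calls of other probe sets that would change a count are given beside it. Over all 9155 named genes, counted in the same way, 648 were called higher and 760 lower. Some genes stand in more than 1 list, so the list counts are not independent of each other. The array medians lay between 5.64 and 5.68, and the number of arrays limits the precision. Of 12 markers of granulosa and cumulus cells, 5 were called higher and 1 was called lower for large follicles. Their mean signal ran from 11.20 to 11.30 in large-follicle arrays and from 10.73 to 10.89 in small-follicle arrays. Of 4 measured theca markers 0 were called higher and 1 lower, NR2F2 (-0.76), a call that held without any 1 array. The steroid enzyme CYP17A1 averaged 4.92 in large- and 4.79 in small-follicle arrays, and the theca hormone INSL3 9.41 in large- and 9.38 in small-follicle arrays. The 6 measured oocyte markers averaged between 2.85 and 4.87 in either group, with 0 called and 0 at an unadjusted limma p under 0.05. The 11 measured leukocyte markers were all higher in sign in large-follicle arrays (median 0.62, 2 called), with a summed linear signal of 279.4 to 696.4 in large-follicle arrays, against 236.5 to 359.0 in small-follicle arrays. Their highest value was in large-follicle replicate 1. The defining leukocyte marker PTPRC averaged 3.57 in large- and 3.49 in small-follicle arrays, both under the lower quartile of 3.83. Markers of endothelium (0 of 7 higher, 1 lower), stroma (0 of 7 called by limma, 1 higher and 1 lower at an unadjusted p under 0.05) and smooth muscle (2 of 5 higher, 0 lower) were also read. In these bulk samples fewer cells of a type and less RNA per cell cannot be told apart.

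Among the receptors, 1 probe set was called higher in cumulus cells of large follicles, that of FSHR, and 1 was called lower, the brighter probe set of PGRMC1. Of all 24016 probe sets 5.72% were called higher and 7.16% lower, 12.9% in all. The 2 calls among 11 probe sets make a share close to that background. The median difference of the 11 was 0.06, against 0.01 over all probe sets, and 6 were positive and 5 negative. Without a correction for multiple testing, 2 receptor probe sets were higher and 1 lower at a limma p under 0.05, where 27.0% of all probe sets lay in either direction.

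**Figure D1:**
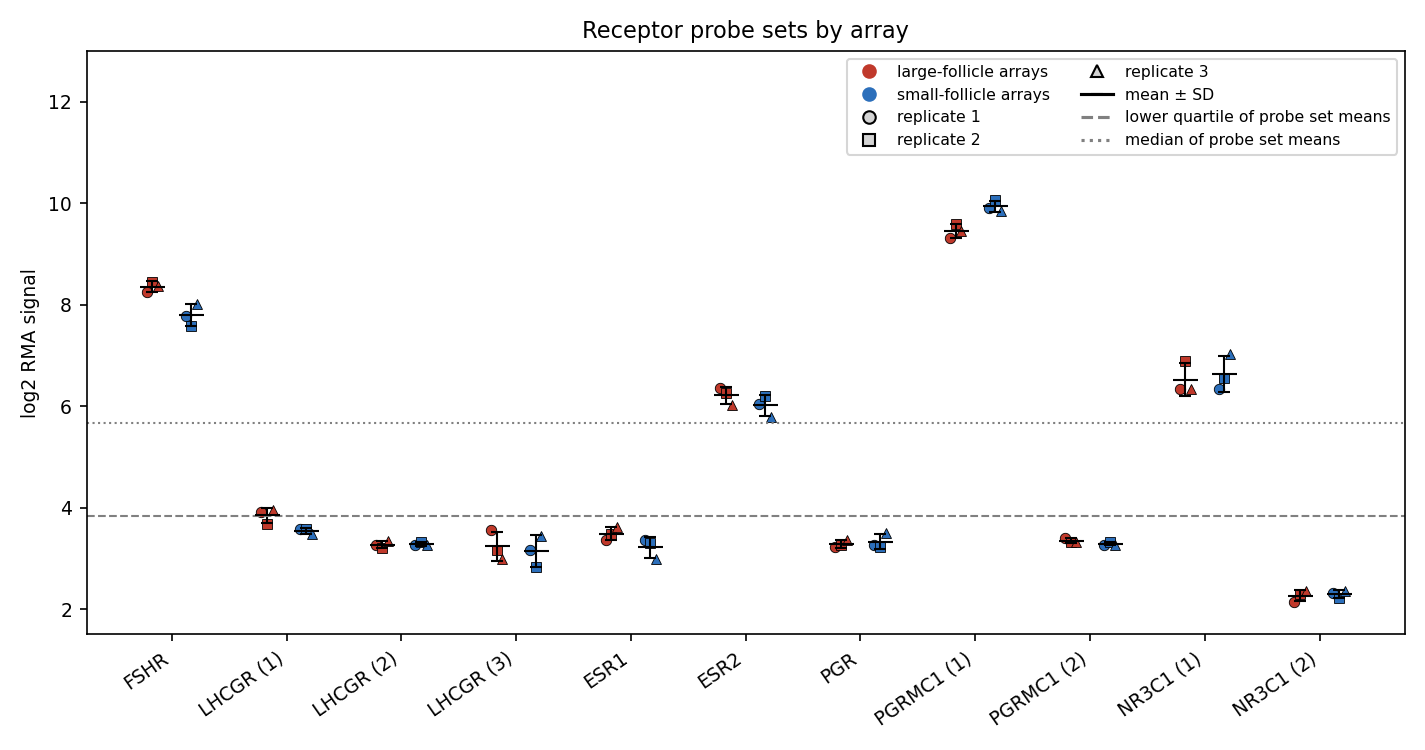
Log2 RMA signal of the 11 receptor probe sets (y axis) in 3 large-follicle arrays (red, left) and 3 small-follicle arrays (blue, right), with the mean ± SD of each group. Dashed and dotted lines mark the lower quartile and median of all probe set means. Numbers in brackets order the probe sets of a gene by signal. FSHR and the first PGRMC1 probe set show separate groups, with large-follicle means of 8.35 and 9.45, against small-follicle means of 7.79 and 9.93.

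**Figure D2:**
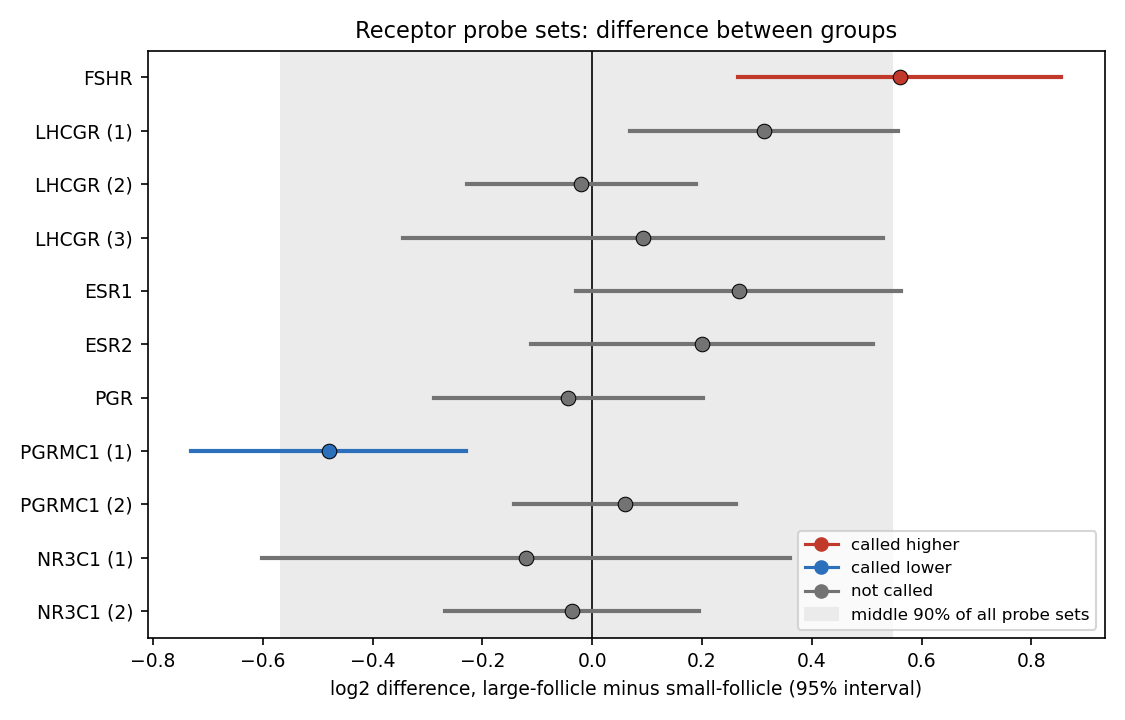
Log2 difference, large-follicle minus small-follicle, with its 95% interval (x axis) for each receptor probe set. The grey band spans the middle 90% of all 24016 differences, from -0.57 to 0.55. FSHR, at 0.56, lies at the edge of the band and the first PGRMC1 probe set, at -0.48, inside it.

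FSHR, the receptor that granulosa and cumulus cells need to respond to follicle-stimulating hormone, had log2 signals of 8.24, 8.45 and 8.36 in large-follicle arrays, against 7.78, 7.58 and 8.01 in small-follicle arrays. The lowest large-follicle array stood 0.23 above the highest small-follicle array, and the large-follicle arrays spread over 0.21 log2 units, against 0.43 in the small-follicle ones. The means were 8.35 ± 0.11 for large and 7.79 ± 0.22 for small follicles (SD, n = 3 each). FSHR rose by 0.56 ± 0.13 (SE), 1.47-fold, with a 95% interval of 0.27 to 0.85 and a limma Benjamini-Hochberg adjusted p of 0.0258. It ranked 2061 by p among all probe sets.

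The call of FSHR did not hold under most omissions of 1 array. It was lost on omission of large-follicle replicate 1 (0.62), 2 (0.51) or 3 (0.56), or of small-follicle replicate 1 (0.56) or 2 (0.46). Without small-follicle replicate 3 (0.67) it was kept. An omission also leaves fewer arrays to test with, and calls over all probe sets went from 3094 to between 1615 and 2477. The FSHR difference itself stayed between 0.46 and 0.67. An index of RNA quality moved with the groups: the 3' minus 5' signal of 6 control transcripts was 2.15, 1.77 and 2.01 in large-follicle arrays, against 2.68, 2.53 and 2.16 in small-follicle arrays (difference -0.48, 2-sided exact permutation p = 0.1, which is the lowest value possible with 6 arrays). Adjusted for this index, the FSHR difference was 0.29 ± 0.17 (SE) and was not called, and with the mean of the leukocyte markers as a covariate it was 0.54 ± 0.17 (SE) and was not called. Over all probe sets 215 were called with the index and 1354 with the leukocyte markers, as against 3094 without a covariate. Whether either covariate plays a part in the FSHR difference was not tested.

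LHCGR, the luteinising hormone receptor, lies next to FSHR in the bovine gene table of ARS-UCD2.0, with 0 protein-coding genes between them. Its brightest probe set had 3.91, 3.68 and 3.96 in large-follicle arrays, against 3.57, 3.57 and 3.47 in small-follicle arrays. The groups did not overlap, but the gap was 0.11 log2 units. This held for 3 of the 11 receptor probe sets, 2 with the large-follicle arrays above, and for 30.9% of all probe sets. The LHCGR difference was 0.31 ± 0.11 (SE), with a 95% interval of 0.07 to 0.56 before adjustment, and it was not called (limma Benjamini-Hochberg adjusted p = 0.0976).

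The other LHCGR probe sets gave no such separation. One, drawn from the same transcript record as the first, had 3.55, 3.17 and 2.98 in large-follicle arrays, against 3.16, 2.82 and 3.44 in small-follicle arrays, with a difference of 0.09 ± 0.19 (SE). The last had 3.26, 3.20 and 3.34 in large-follicle arrays, against 3.26, 3.33 and 3.27 in small-follicle arrays, a difference of -0.02 ± 0.09 (SE). The 3 probe sets stood at the 14.9th to 23.0th percentile of signal on these arrays, and the means of all 3 over the 6 arrays lay below the lower quartile of 3.83. The LHCGR difference was 0.49 with the brightest probe set adjusted for the 3' minus 5' index and 0.13 as the mean of its 3 probe sets, and it was called in 0 of 15 other settings.

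**Figure D3:**
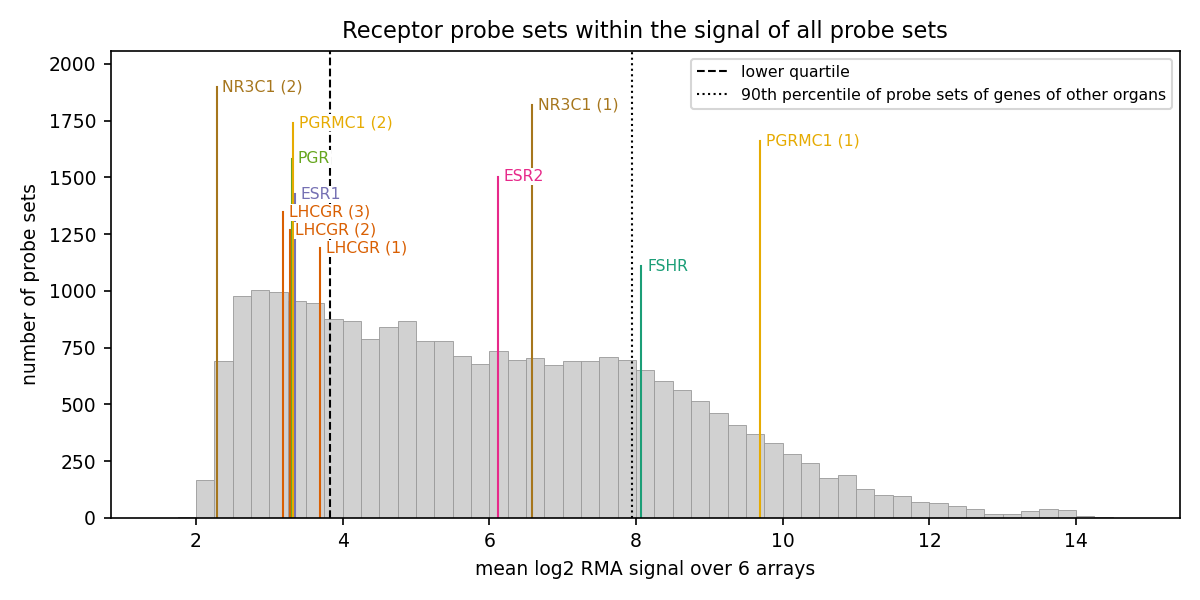
Number of probe sets (y axis) by mean log2 signal over the 6 arrays (x axis), with the receptor probe sets marked. The dashed line is the lower quartile, 3.83, and the dotted line, 7.95, is the 90th percentile of probe sets of genes typical of other organs. In all, 7 of the 11 receptor probe sets lie below the lower quartile.

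Signal near background limited most of this receptor set. Genes typical of pituitary, mammary gland, liver, muscle and other organs were used as a reference for signal without the expected transcript, and 25 of 28 such genes were measured by 62 probe sets. Their median was 4.17 and their 90th percentile 7.95. By that 90th percentile 9 of the 11 receptor probe sets counted as near background in both groups, as did 74.6% of all probe sets, and only FSHR and the first PGRMC1 probe set did not. FSHR passed the mark by its large-follicle mean of 8.35, while its small-follicle mean of 7.79 lay under it. The first PGRMC1 probe set lay above it in both groups. Some reference genes read bright here by their brightest probe set, so this mark is a strict one. The muscle enzyme CKM averaged 11.86 in large- and 11.19 in small-follicle arrays, and the pituitary hormone PRL 9.56 in large- and 9.07 in small-follicle arrays. The other CKM probe set averaged 4.40 in large- and 4.41 in small-follicle arrays. Differences of the other PRL probe sets ran from -0.46 to 0.38. By their brightest probe sets CKM and PRL were called higher and FSHB (-0.48) lower, so the reference genes were not free of calls. The PRL call was lost without 5 of the 6 arrays in turn, and the other FSHB probe set, at -0.15, was not called. Readings of such single probe sets give no level of muscle or pituitary transcript in these cells. By the lower quartile of all probe sets, 4 genes (FSHR, ESR2, PGRMC1 and NR3C1) had a probe set above it, and LHCGR, ESR1 and PGR had none.

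Neither oestrogen receptor passed the test. ESR2, the main oestrogen receptor of granulosa cells, had 6.35, 6.26 and 6.03 in large-follicle arrays, against 6.05, 6.20 and 5.79 in small-follicle arrays. The groups overlapped, with small-follicle replicate 2 above large-follicle replicate 3. The difference was 0.20 ± 0.14 (SE), with a 95% interval of -0.11 to 0.51 (limma Benjamini-Hochberg adjusted p = 0.41), and it was 0.41 adjusted for the 3' minus 5' index, again not called.

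ESR1, the oestrogen receptor that in the mouse ovary is found mainly in theca and stroma, had 3.36, 3.48 and 3.61 in large-follicle arrays, against 3.37, 3.30 and 2.98 in small-follicle arrays. The groups overlapped by 0.01, and small-follicle replicate 3 was the lowest array. The difference was 0.27 ± 0.13 (SE), with a 95% interval of -0.03 to 0.56 (limma Benjamini-Hochberg adjusted p = 0.233), and it was 0.15 without small-follicle replicate 3, 0.47 adjusted for the 3' minus 5' index and 0.43 with the leukocyte markers as a covariate, none of them called. The probe set stood at the 17.6th percentile of signal.

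PGR, the nuclear progesterone receptor, which in the mouse is induced in granulosa cells by the preovulatory surge and is needed for ovulation, had 3.22, 3.27 and 3.36 in large-follicle arrays, against 3.27, 3.22 and 3.49 in small-follicle arrays. The groups overlapped. The difference was -0.04 ± 0.11 (SE), with a 95% interval of -0.29 to 0.20 (limma Benjamini-Hochberg adjusted p = 0.851), and it was -0.21 adjusted for the 3' minus 5' index. Its single probe set had a mean below the lower quartile of all probe sets, so a level of PGR transcript could not be told from background in either group.

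PGRMC1, a haem-binding membrane protein linked to progesterone responses and to cell division in granulosa cells, had 9.32, 9.59 and 9.45 in large-follicle arrays, against 9.90, 10.05 and 9.85 in small-follicle arrays by its brighter probe set. All 3 large-follicle arrays lay below all 3 small-follicle arrays, with a gap of 0.26. The means were 9.45 ± 0.14 for large and 9.93 ± 0.10 for small follicles (SD, n = 3 each). PGRMC1 fell by 0.48 on the log2 scale (SE 0.11, 95% interval -0.73 to -0.23, limma Benjamini-Hochberg adjusted p = 0.0251), which makes it 1.39-fold higher in small-follicle arrays.

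The PGRMC1 call did not survive omission of large-follicle replicate 1 (-0.41) or 3 (-0.48), or of small-follicle replicate 1 (-0.50) or 2 (-0.42). It survived omission of large-follicle replicate 2 (-0.55) or small-follicle replicate 3 (-0.52). After adjustment for the 3' minus 5' index the difference was -0.54 ± 0.18 (SE), as large as without it, and was not called. With the leukocyte markers as a covariate it was -0.38 ± 0.13 (SE) and was not called, and their part in the result was not tested. The second PGRMC1 probe set read 3.40, 3.33 and 3.32 in large-follicle arrays, against 3.27, 3.33 and 3.27 in small-follicle arrays, a difference of 0.06 ± 0.09 (SE) at the 17.2th percentile of signal. As the mean of both probe sets, PGRMC1 differed by -0.21 ± 0.08 (SE) and was not called.

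**Figure D4:**
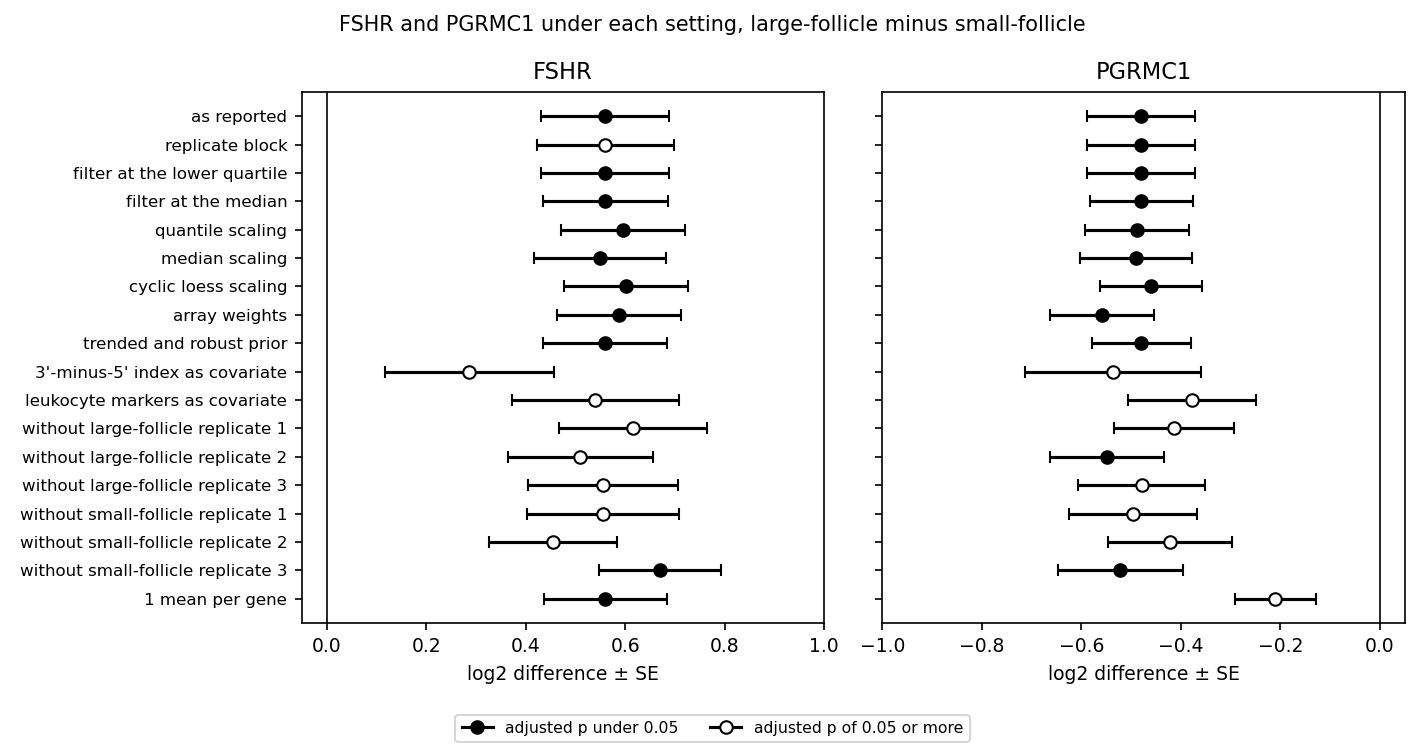
Log2 difference ± SE, large-follicle minus small-follicle (x axis), of FSHR (left) and PGRMC1 (right) in the fit as reported and in 17 other settings (y axis). Filled points have an adjusted p under 0.05. FSHR was positive, 0.29 to 0.67, and PGRMC1 negative, -0.56 to -0.21, in every setting shown, and the call was kept in 9 and 10 of the 17.

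NR3C1, the glucocorticoid receptor, had 6.34, 6.89 and 6.33 in large-follicle arrays, against 6.34, 6.55 and 7.03 in small-follicle arrays by its brighter probe set. The groups overlapped almost fully, and the highest array was small-follicle replicate 3. The difference was -0.12 ± 0.21 (SE), with a 95% interval of -0.60 to 0.36 (limma Benjamini-Hochberg adjusted p = 0.78). Its pooled SD of 0.34 was the widest of the 11. Without small-follicle replicate 3 the difference was 0.08, and adjusted for the 3' minus 5' index it was -0.79, with no call in either fit. The second NR3C1 probe set, at the 0.950th percentile of signal, read -0.04 ± 0.10 (SE).

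Genes that carry the gonadotropin signal inside the cell were not called by their brightest probe sets. Of 26 listed coupling genes (G protein subunits, adenylyl cyclases, subunits of protein kinase A, CREB factors, arrestins and receptor kinases) 20 were measured, 0 were called by limma, and 2 were higher and 4 lower at an unadjusted p under 0.05. As background, 648 of all 9155 named genes were called higher and 760 lower, and 1332 were higher and 1525 lower at that unadjusted p. By the 7.95 mark 10 of the 20 coupling genes counted as near background, as did 5227 of all 9155. The median difference of the 20 was 0.02, against 0.01 over all named genes. They ran from -0.37 for GRK6 to 0.31 for RAPGEF3, both named after their values were seen. Their mean signal per array was 7.57 to 7.62 in large-follicle arrays and 7.56 to 7.61 in small-follicle arrays. A dimmer probe set was called higher for CREM, a cyclic AMP-responsive factor (0.68), and for the receptor kinase GRK2 (0.45), both named after their values were seen. By the brightest probe sets 1 gene was called lower with array weights or without large-follicle replicate 3.

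Genes known to respond to follicle-stimulating hormone were higher where they passed. Among all 19 listed, 8 rose and 0 fell, 11 did not pass, and the median was 0.38. Over all 9155 named genes 648 rose and 760 fell. The aromatase CYP19A1 had 12.77, 11.88 and 12.11 in large-follicle arrays, against 9.91, 10.30 and 10.14 in small-follicle arrays, a difference of 2.14 ± 0.22 (SE). All large-follicle arrays lay above all small-follicle arrays. CYP11A1, which makes pregnenolone, rose by 1.72 ± 0.16 (SE), the activin subunit INHBA by 1.14 ± 0.10 (SE), and the transcription factors GATA4 and NR5A2 by 0.76 and 0.70. Their calls held without any 1 array, while that of FSHR itself, at 0.56, did not. After adjustment for the 3' minus 5' index 3 genes of the list were called, as against 8 without it. Over all 24016 probe sets 215 were called with the index, as against 3094 without it. With the leukocyte markers as a covariate, or without large-follicle replicate 1, 1 gene of the list was called lower. The list was chosen with earlier results of these arrays known, so its direction is not independent evidence. It also holds all 5 granulosa and cumulus markers that were called higher, so those calls are the same ones.

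**Figure D5:**
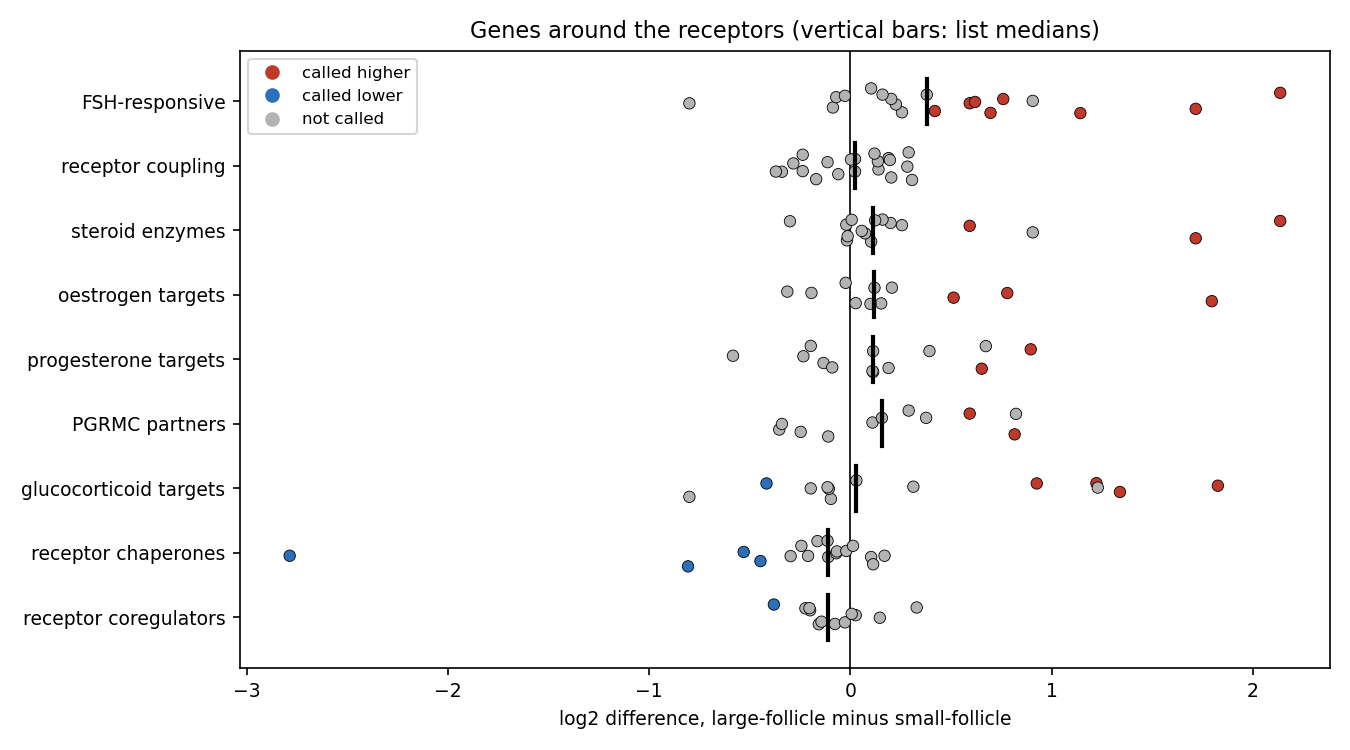
Log2 difference, large-follicle minus small-follicle (x axis), of each measured gene in 9 lists around the receptors (y axis), 1 probe set per gene. Red points were called higher, blue points lower and grey points not called, and vertical bars are list medians. The medians run from -0.11 for the chaperones and coregulators to 0.38 for the genes responsive to follicle-stimulating hormone.

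Enzymes that make or change steroid ligands had 3 calls among 16 measured genes, all higher, against 648 higher and 760 lower among all 9155. They were CYP11A1, CYP19A1 and POR, the electron donor of microsomal cytochromes P450, at 0.59 ± 0.11 (SE). All 3 were already counted among the genes responsive to follicle-stimulating hormone, so they add no separate evidence. The median of the enzymes was 0.11. HSD11B1, which regenerates active glucocorticoid, had the lowest value of the list at -0.30, was not called and was named after its value was seen. Of 15 other listed steroid-binding receptors and relatives of PGRMC1 only PAQR3, PAQR6 and NENF were measured, with differences of -0.18, -0.23 and 0.07, and 0 were called by limma (0 at an unadjusted p under 0.05).

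Among 11 measured genes known as oestrogen targets in other tissues, 3 rose, 0 fell and 8 did not pass, with a median of 0.12. The background was 648 higher and 760 lower among all 9155 named genes. IGFBP4, which binds insulin-like growth factors, had 8.18, 8.01 and 7.75 in large-follicle arrays, against 5.94, 6.38 and 6.23 in small-follicle arrays, a difference of 1.80 ± 0.15 (SE). The ubiquitin ligase SIAH2 rose by 0.78 ± 0.10 (SE), and both calls held without any 1 array. The retinoic acid receptor RARA differed by 0.51 ± 0.12 (SE), a call kept only without small-follicle replicate 1 (0.58) and lost without any other array (0.41 to 0.58). Its second probe set was called higher at 0.60 ± 0.09 (SE). By their brightest probe sets IGFBP4 (7.98) and RARA (8.28) passed the 7.95 mark only by their large-follicle means. Their small-follicle means were 6.18 and 7.77. Adjusted for the 3' minus 5' index, 1 of the 11 was called, as were 215 of all 24016 probe sets (3094 without the index).

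Among 13 measured genes linked to PGR in ovulation studies, 2 rose, 0 fell and 11 did not pass, with a median of 0.11. In either direction that is close to the share over all 9155 named genes, where 648 rose and 760 fell. The chemokine receptor CXCR4 rose by 0.90 ± 0.18 (SE), a call lost without small-follicle replicate 1 (0.77). CXCR4 averaged 6.64 in large- and 5.74 in small-follicle arrays, so it counted as near background by the 7.95 mark. The nuclear receptor PPARG rose by 0.65 ± 0.15 (SE), a call that failed on omission of large-follicle replicate 2 (0.54) or 3 (0.67), or of small-follicle replicate 1 (0.54) or 2 (0.66). After adjustment for the 3' minus 5' index neither was called (0.92 and 0.22), and calls over all probe sets went from 3094 to 215. The protease ADAMTS1, a target of PGR in the mouse, was at 0.39 ± 0.37 (SE) and did not pass, and was named after its value was seen.

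Among 11 measured partners of PGRMC1 in binding and sterol control, 2 rose, 0 fell and 9 did not pass, with a median of 0.16. Once adjusted for the 3' minus 5' index, 0 of them were called, and calls over all probe sets went from 3094 to 215. As background, 648 of all 9155 named genes rose and 760 fell. The partners that rose were POR, already counted in the lists above, and INSIG2, which holds back sterol regulatory proteins, at 0.82 ± 0.21 (SE). The INSIG2 call was lost on omission of large-follicle replicate 1 (0.90), or of small-follicle replicate 1 (0.80), 2 (0.83) or 3 (0.83), and its other probe sets, at 0.79 and 0.42, did not pass. INSIG2 passed the 7.95 mark only by its large-follicle mean of 8.60, with a small-follicle mean of 7.78. SERBP1, an RNA-binding protein reported as a partner of PGRMC1, averaged 11.57 in large-follicle arrays and 11.92 in small-follicle arrays, -0.35 ± 0.11 (SE), and did not pass (limma Benjamini-Hochberg adjusted p = 0.07). It was named after its value was seen.

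Glucocorticoid-responsive genes were called in both directions. Among 13 with a probe set, 4 rose and 1 fell, 8 did not pass, and the median was 0.03. The background was again 648 higher and 760 lower among all 9155 named genes. CEBPD, a transcription factor, rose by 1.22 ± 0.11 (SE), the EGF receptor inhibitor ERRFI1 by 1.34 ± 0.17 (SE) and the cell cycle inhibitor CDKN1C by 1.83 ± 0.34 (SE). These 3 calls held without any 1 array, although the other CDKN1C probe sets, at 0.60 and 0.18, did not pass. CEBPB rose by 0.93 ± 0.22 (SE) and GLUL, glutamine synthetase, fell by 0.42, and either call was lost without 5 of the 6 arrays in turn, kept only without large-follicle replicate 3 for CEBPB (1.20) and large-follicle replicate 1 for GLUL (-0.49). The other CEBPB probe set was called higher at 1.56 ± 0.25 (SE). Both CEBPB probe sets had means under the 7.95 mark in both groups, so they counted as near background. CDKN1C passed the mark only by its large-follicle mean of 8.24, with a small-follicle mean of 6.42. Adjusted for the 3' minus 5' index, 1 gene of the list was called higher and 0 lower, and calls over all probe sets went from 3094 to 215. Of the 8 that did not pass, FKBP5 at -0.11 ± 0.19 (SE), DUSP1 at -0.10 ± 0.12 (SE) and ZBTB16 at -0.20 ± 0.15 (SE) are often used as readouts of NR3C1. The rest were MT2A (1.23), TAT (0.31), NFKBIA (0.03), PCK1 (-0.11) and SGK1 (-0.80), and all 8 were named after their values were seen. All but DUSP1 and MT2A counted as near background by the 7.95 mark. FKBP5 averaged 3.45 in large- and 3.56 in small-follicle arrays, under the lower quartile of 3.83.

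Chaperones that hold steroid receptors were lower where they passed. By comparison, 648 of all 9155 named genes rose and 760 fell. Among all 17 listed chaperones, 0 rose and 4 fell, 13 did not pass, and the median was -0.11. Of those 13, PPID (-0.50) and HSPA4 (-0.37) had a dimmer probe set that was called lower, and both were named after their values were seen. DNAJB1, a partner of HSP70 chaperones, averaged 8.93 in large-follicle arrays and 11.72 in small-follicle arrays, and fell by 2.79, while HSPA8 fell by 0.81. HSP90AA1, the stress-responsive HSP90, averaged 12.58 in large- and 13.11 in small-follicle arrays and fell by 0.53, a call that failed on omission of large-follicle replicate 2 (-0.49), or of small-follicle replicate 1 (-0.50) or 2 (-0.48). DNAJA1 fell by 0.45, a call kept only without small-follicle replicate 3 (-0.55) and lost without any other array (-0.51 to -0.36). DNAJA1 passed the 7.95 mark only by its small-follicle mean of 8.20, with a large-follicle mean of 7.76. The constitutive HSP90AB1, at -0.07 ± 0.09 (SE), and the receptor co-chaperone FKBP4, at 0.01 ± 0.13 (SE), did not pass and were named after their values were seen. After adjustment for the 3' minus 5' index 1 of the 17 was called lower, with the leukocyte markers as a covariate 2. Over all probe sets 215 and 1354 were called in these fits, as against 3094 without a covariate.

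Of 24 listed receptor coregulators 12 were measured, and 1 fell and 11 did not pass, with a median of -0.11. By comparison, 760 of all 9155 named genes fell and 648 rose. NCOA4, which also carries ferritin to lysosomes, fell by 0.38, a call lost on leaving out any 1 of the 6 arrays (-0.42 to -0.32).

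The profiles most like those of the 2 called receptors over the 6 arrays were listed as a description. Since the arrays form 2 groups, a high r goes with any difference between them, and 529 of 12992 named probe sets had a Pearson r above 0.9 with FSHR. The closest were CASP4 (r = 0.998), NGDN (0.996), TMEM9 (0.993) and NOCT (0.992). CASP4, at 0.76, and NOCT, at 0.71, were called higher, while NGDN, at 0.26, and TMEM9, at 0.33, were not called. CASP4 averaged 3.73 in large- and 2.98 in small-follicle arrays, both under the lower quartile of 3.83. For PGRMC1 the closest were RPAP2 (r = 0.998), PDCD7 (0.995), HAT1 (0.990) and YBX1 (0.989). RPAP2, at -0.58, and HAT1, at -0.44, were called lower, while PDCD7, at -0.30, and YBX1, at -0.20, were not.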

How the data were processed

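The deposited log2 values are RMA probe set signals; the submitters' processing notes name that method, and no source used here names a program, version or setting. The table holds 24128 probe sets, and 112 of them, controls, were not tested. Of the other 24016, 13292 carry 1 gene symbol, 86 several and 10638 none. Large-follicle minus small-follicle differences came from limma 3.58.1 under R 4.3.3, using lmFit, then eBayes with a constant prior, with 2-sided moderated tests and Benjamini-Hochberg adjustment over all 24016 probe sets at 0.05, and no filter on low values. The total degrees of freedom were 8.28. A gene with several probe sets was read first from the one with the highest mean. All receptors were named, and of each other list up to 5 called genes with the smallest p, and the 4 profiles most like each called receptor. Receptors, lists and settings were chosen with earlier results of these data known. The replicate numbers of the titles were checked as pairs: deviations from the group means of same-numbered arrays correlated at -0.002, -0.05 and -0.34, so they were not used as pairs. The procedure was tested on simulated data. The plots used matplotlib 3.10.9 under python 3.11.15.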

Additional observations from a re-analysis of the deposited data

How the results depend on the processing

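The number of receptor probe sets called higher was 1 as reported and 0 with a replicate block, with the 3' minus 5' index and with the leukocyte markers as covariate, and 0 to 1 leaving out 1 array. The number called lower was 1, and 0 with either covariate and with 1 mean per gene, and 0 to 1 leaving out 1 array. Over all probe sets 3094 were called as reported, 1964 with the replicate block, 215 with the index, 1354 with the leukocyte markers, 1473 genes with 1 mean per gene, which tests fewer features, and 1615 to 2477 leaving out 1 array. With the replicate block FSHR kept its difference of 0.56 and was not called (limma adjusted p = 0.0595), while PGRMC1 kept its call. The 3' minus 5' index differed by -0.63 to -0.37 leaving out 1 array. Differences that turned sign were not called in either fit. LHCGR's dimmer probe sets read 0.019 and -0.015 with the index and 0.0001 and -0.2167 with the leukocyte markers, and -0.0567 to 0.0133 and -0.0667 to 0.2433 leaving out 1 array. Leaving out 1 array gave -0.0967 to 0.0383 for PGR, -0.305 to 0.075 for NR3C1 and -0.085 to 0.025 for its second probe set, which read 0.0178 with the leukocyte markers. The cause of these changes was not tested. Scaling, filters, array weights and a trended prior left both receptor calls in place, and filters removed the dim probe sets. The other lists were put through the same settings after their values were seen. Low signal limits what can be said of LHCGR, ESR1 and PGR.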
